A study of Homo sapiens with 4 samples.

Results

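The splicing factors described here are 78 of the 23615 genes of the data set, chosen by name in 6 families. There were 13 genes whose names begin with SNRP (proteins of small nuclear ribonucleoprotein particles, or snRNPs), 9 with SF3A or SF3B, 12 SRSF genes (SR proteins), 24 with HNRNP (heterogeneous nuclear ribonucleoproteins), 13 with PRPF and a number, and 7 of the numbered LSM series. The RNA came from K562 cells, an established human line from a chronic myeloid leukaemia with erythroid features. Clofarabine-treated cells received 5 µM of the drug, a deoxyadenosine analogue that blocks DNA synthesis, in 0.005% DMSO, and control cells received DMSO alone. Both groups were taken at 3 h and had 2 samples each, here called C0 and C1 (clofarabine) and V0 and V1 (DMSO). In the deposited table the libraries carry only the letters C and V. They were taken here to stand for clofarabine and vehicle, and all directions turn round if that is wrong. Nothing in the labels ties the samples to separate cultures, so the spread behind each p-value may be technical.

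Splicing removes introns through the spliceosome, in which snRNPs assemble on each intron. Sm proteins form a ring on most of the small nuclear RNAs, and related LSM proteins form one on U6. The SF3a and SF3b complexes belong to the U2 snRNP and hold it at the branch site, and PRPF proteins build and drive the tri-snRNP that brings in the catalytic centre. SR proteins and hnRNPs bind the transcript itself and often act in opposite ways on whether an exon is kept.

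Estimated fragments per gene summed to between 8370550 and 23888755 in a library, with C1 the deepest and V0 the shallowest. Of 11761 genes with enough fragments to test, edgeR's quasi-likelihood test called 181 as higher and 121 as lower in clofarabine at a Benjamini-Hochberg adjusted p under 0.05. With library totals alone as the scaling, 170 were higher and 200 lower. CPM are counts scaled to a common library total, with each total first multiplied by its TMM factor, the scaling of the edgeR test. These factors ran from 0.968 in C1 to 1.015 in V0. Whether the groups of a gene overlap was judged on these CPM, and can differ with library totals alone. The globin genes HBG1, HBG2, HBZ and HBE1, which mark K562 cells, stood between 2461 and 16005 CPM. Of 7 markers of other blood lineages 6 stayed at or under 0.778 CPM, PTPRC being the exception at 57.7 to 73.0 CPM.

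Of the 78 splicing factors 72 could be tested, of which 4 rose with clofarabine, none fell and 68 were not called. The rises were those of SNRPE, SNRPF and SNRPG, proteins of the Sm ring, and of SF3B14, a protein of the U2 snRNP. They make up 4 of 72 tested members, where 1.54% of all tested genes were called as higher, 1.03% as lower and 2.57% in either direction. At an unadjusted p under 0.05 in edgeR 22 members were higher and 2 lower, where 8.17% and 6.06% of all tested genes were. DESeq2 called 3 members and limma-voom 4, all as higher. All were small, between 1.22-fold and 1.29-fold. Because bulk RNA was measured, more cells expressing a gene and more RNA per cell cannot be told apart. In the plot of all tested members, the SNRP and LSM families lie to the right of 0 throughout, while the other families lie on both sides. With library totals alone as the scaling, 9 of 11 SNRP genes and 6 of 7 LSM genes had positive values.

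**Figure D1:**
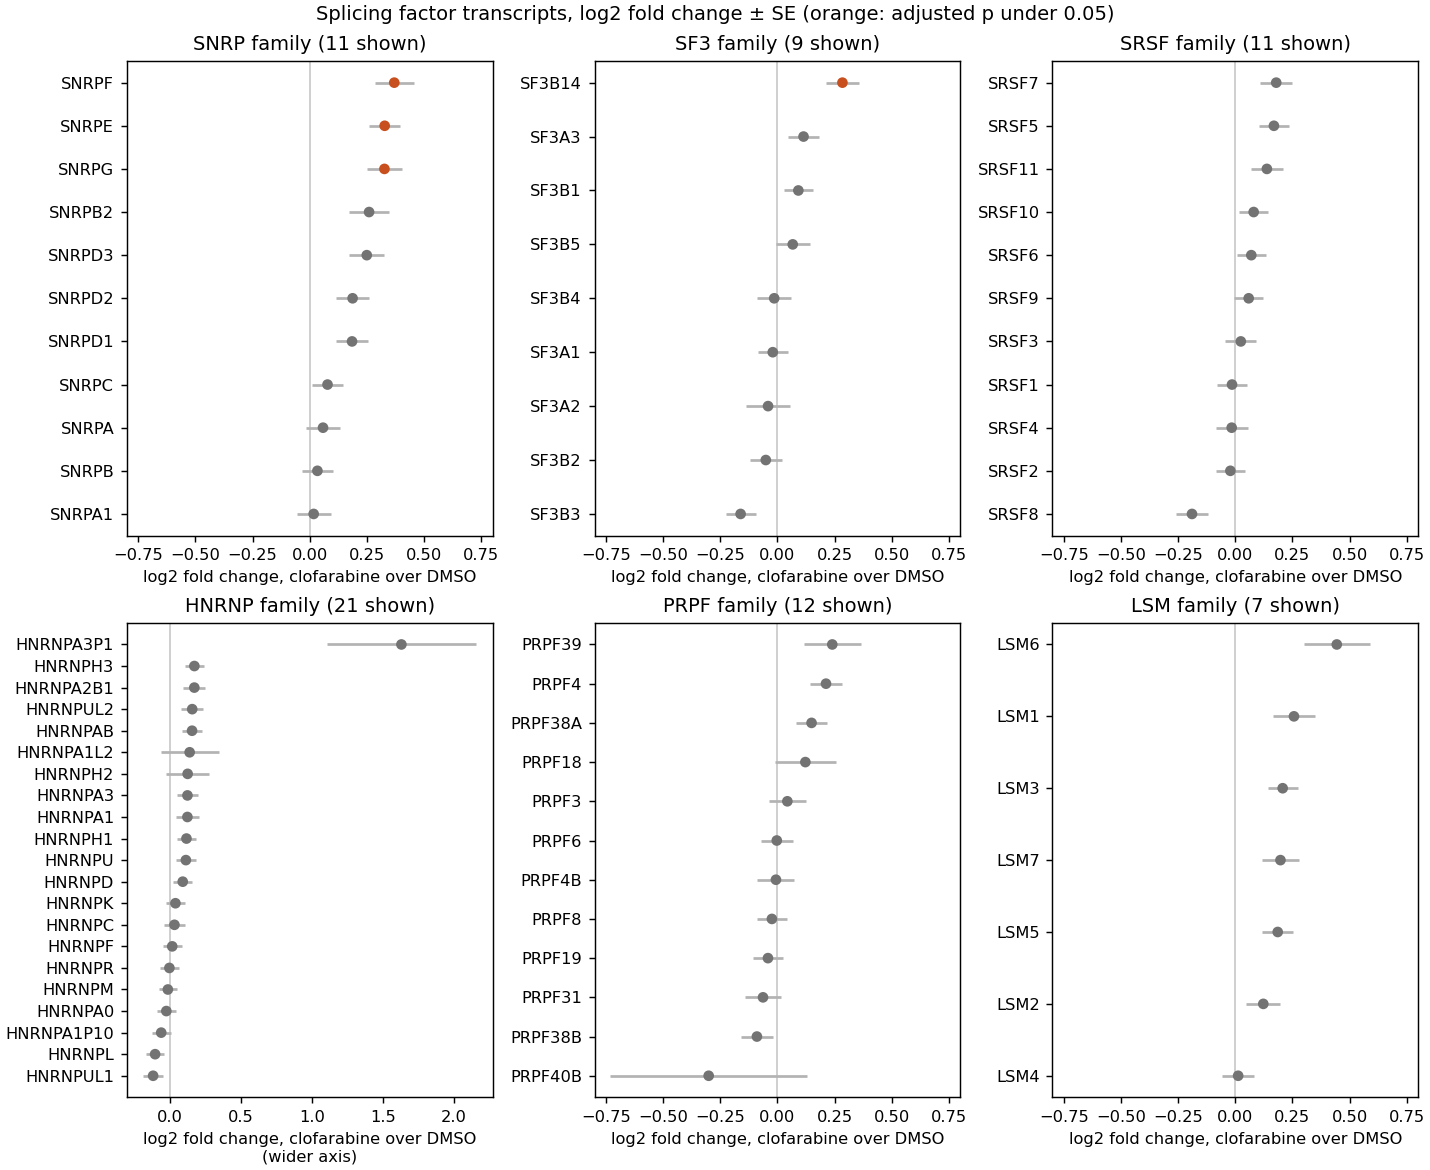
Each point is the log2 fold change of a tested member, clofarabine over DMSO, with its standard error as a bar, in 1 panel per family. The 4 orange points (SNRPE, SNRPF, SNRPG and SF3B14) had an edgeR adjusted p under 0.05, and the HNRNP panel has a wider axis to hold HNRNPA3P1 at 1.63; 1 tested PRPF gene is not shown.

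All 11 tested SNRP genes and all 7 LSM genes had a positive log2 fold change, where 50.6% of all tested genes did. The median log2 fold change was 0.19 over the SNRP genes and 0.20 over the LSM genes. It was 0.11 over 21 HNRNP genes, 0.059 over 11 SRSF genes, -0.0026 over 13 PRPF genes and -0.014 over 9 SF3 genes, where the median of all tested genes was 0.0020. Both clofarabine libraries stood above both DMSO libraries for 7 SNRP, 5 LSM, 9 HNRNP, 6 SRSF, 5 PRPF and 3 SF3 genes, which is 35 of 72 members, where 22.0% of all tested genes did so. They stood below both DMSO libraries for 7 members, where 21.3% of all genes did so. Without C1 the SNRP median was 0.12, the HNRNP median 0.038 and the SF3 median 0.0029, and without V1 the HNRNP median was 0.030 and the SF3 median 0.064. The PRPF median was positive without any 1 of the 4 libraries (0.017 to 0.061), and the SF3 median was 0.037 without C0.

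A family's shift was not of the same size in the libraries of a group. For the SNRP genes, the median deviation of a library from the mean of the 4 libraries was 0.017 in C0 and 0.18 in C1, against -0.069 in V0 and -0.13 in V1, in log2 CPM. For the LSM genes it was 0.026 in C0 and 0.15 in C1, against -0.084 in V0 and -0.12 in V1. In both families C1 was the highest library. In the SNRP family C0 lay nearer to both DMSO libraries than to C1. In the LSM family it lay nearer to V0 than to C1, but not nearer to V1. For the SRSF genes it was -0.00019 in C0 and 0.0059 in C1, against -0.015 in V0 and -0.025 in V1, so all 4 libraries lay close together.

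**Figure D2:**
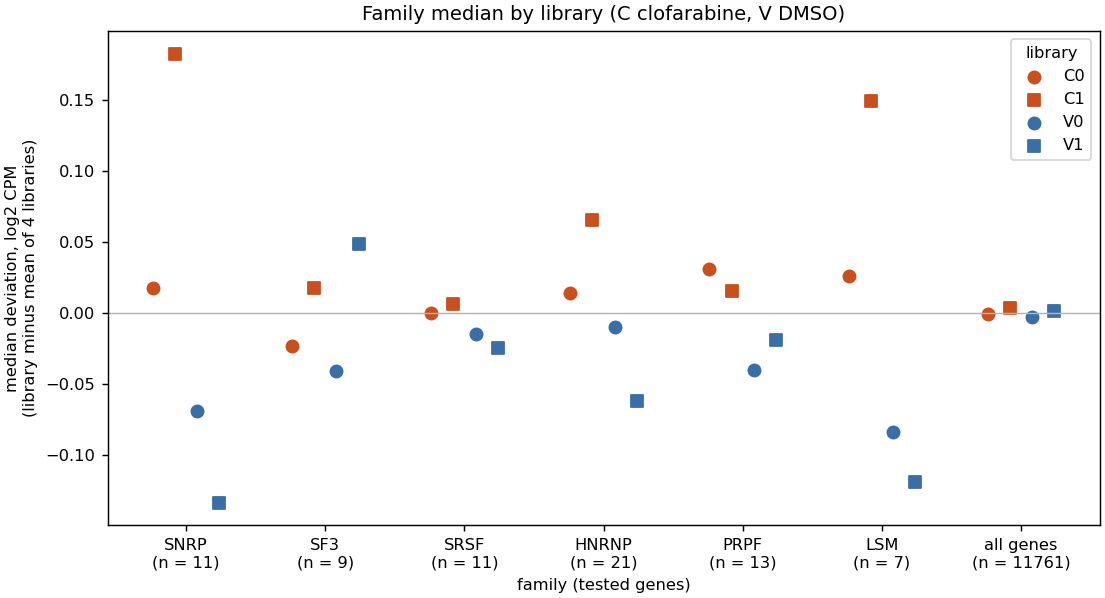
Points give, for each family and for all tested genes, the median over genes of a library's log2 CPM minus the mean of the 4 libraries (orange for clofarabine, blue for DMSO; circles for library 0, squares for library 1). C1 stands highest in the SNRP family (0.18) and the LSM family (0.15), and in the SF3 family V1 (0.049) stands above C0 and C1.

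Among the Sm proteins, the core of each snRNP, SNRPE, SNRPF and SNRPG rose. These 3 proteins are known to form a trimer before the ring closes with the pairs SmD1 with SmD2 and SmD3 with SmB. SNRPE stood at 286 and 307 CPM in C0 and C1, against 242 and 230.3 CPM in V0 and V1. Both clofarabine libraries were above both DMSO libraries, with means of 296 ± 15.0 CPM in clofarabine and 236 ± 8.35 CPM in DMSO (SD, n = 2 each). The log2 fold change was 0.33 (SE 0.067, edgeR adjusted p = 0.00724). SNRPF stood at 95.3 and 113 CPM in C0 and C1, against 82.1 and 80.0 CPM in V0 and V1. The groups did not overlap, C1 was well above C0, and the log2 fold change was 0.37 (SE 0.085, edgeR adjusted p = 0.0182). SNRPG, which with 708 FPKM (fragments relative to transcript length and sequencing depth) had the highest level per length of the family, stood at 286 and 323 CPM in C0 and C1, against 259 and 228 CPM in V0 and V1. Its groups were apart as well, by less than the gap between C0 and C1, and the log2 difference was 0.33 (SE 0.075, edgeR adjusted p = 0.0182). A fit that leaves out a library has 1 sample in that group, which is then assumed to vary like the other group. None of the 3 was called without V1 (log2 fold changes 0.28, 0.34 and 0.23, edgeR adjusted p = 0.246, 0.145 and 0.508 for SNRPE, SNRPF and SNRPG), and SNRPF was not called without C1 (0.23, edgeR adjusted p = 0.174).

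The stretch before the start of SNRPF is shown as 1 of the members that rose, from RefSeq (GRCh38.p14, chr12:95858702-95858927, plus strand), ending before the most upstream start that GENCODE gives. Capitals mark CCAAT, the box that the factor NF-Y binds, searched on both strands (CCAAT or ATTGG) and chosen after the sequence was read.
SNRPF: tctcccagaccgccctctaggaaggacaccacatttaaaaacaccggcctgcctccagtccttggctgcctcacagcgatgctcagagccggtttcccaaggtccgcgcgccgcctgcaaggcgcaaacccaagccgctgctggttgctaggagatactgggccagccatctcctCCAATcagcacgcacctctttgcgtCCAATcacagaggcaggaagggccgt
The window holds 2 CCAAT boxes. Of 27305 RefSeq promoter windows, 31.4% held at least 1 in their first 226 bases and 9.12% at least 2. Those stretches were not cut to end at a GENCODE start, so their distance from the start may differ.

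The other Sm genes were not called. SNRPD3 was the member nearest to the threshold from outside, at 118 and 131 CPM in C0 and C1, against 109.5 and 101 CPM in V0 and V1, with no overlap between the groups (log2 fold change 0.25, SE 0.077, edgeR adjusted p = 0.0972). Its ring partner SNRPB stood at 339 and 360.4 CPM in C0 and C1, against 327 and 356 CPM in V0 and V1, where V1 lay above C0 and the groups overlapped (log2 fold change 0.034, SE 0.068). SNRPD1 and SNRPD2, which pair with each other, had log2 fold changes of 0.19 (SE 0.068) and 0.19 (SE 0.071), each with both clofarabine libraries above both DMSO libraries. So 6 of the 7 Sm core genes had both clofarabine libraries above both DMSO libraries, where 22.0% of all tested genes did, and the log2 fold changes of all 7 ran between 0.034 and 0.37. Without C0, SNRPD1, SNRPD2 and SNRPD3 were called as higher too, at 0.25, 0.27 and 0.32 (edgeR adjusted p = 0.0129, 0.00127 and 0.00344). Without C1 their values were 0.12, 0.090 and 0.17 (edgeR adjusted p = 0.488, 0.584 and 0.35), and SNRPD2 stood at 0.071 with a length trend taken out. SNRPA, SNRPA1 and SNRPB changed sign in some of the fits, SNRPA1 and SNRPB also with library totals alone as the scaling.

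**Figure D3:**
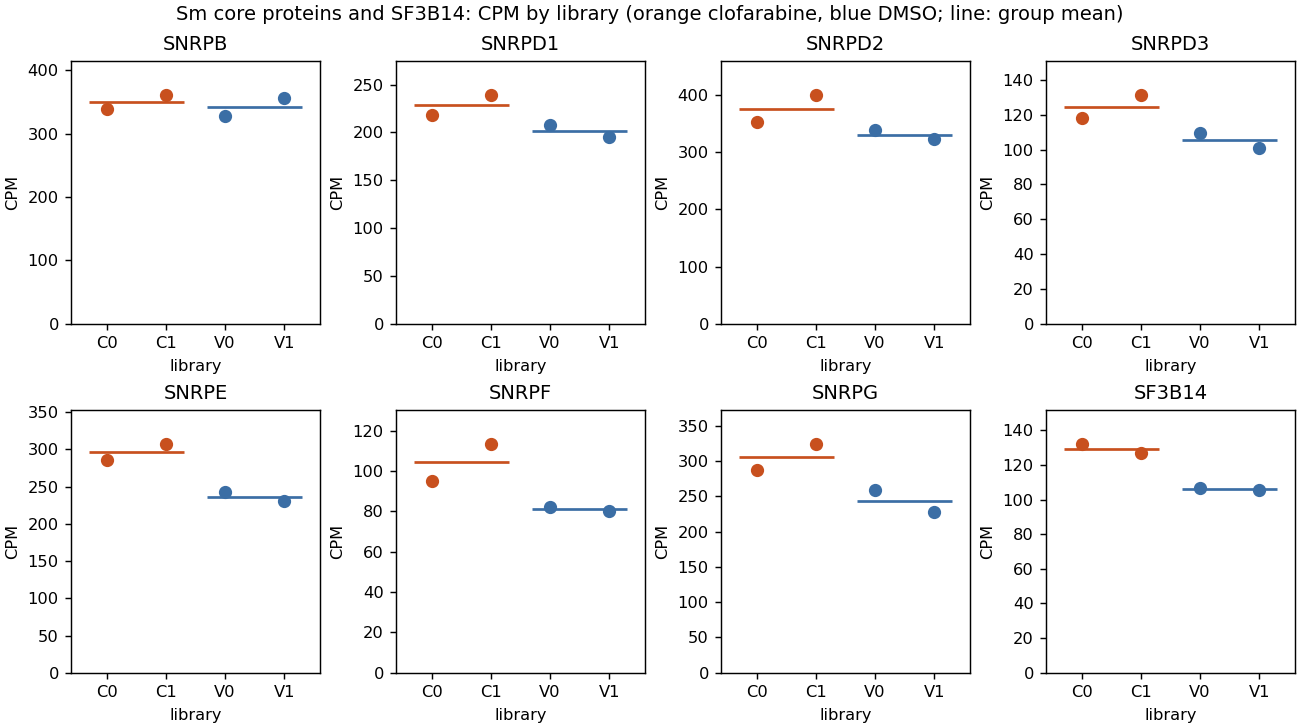
Points are CPM in each library for the 7 Sm core genes and SF3B14, clofarabine (orange) left of DMSO (blue), and lines are group means, on axes that start at 0. In SNRPB the V1 point lies above the C0 point, while in the other 7 genes both clofarabine points lie above both DMSO points.

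None of the 4 proteins specific to 1 snRNP was called. SNRPA and SNRPC, which belong to U1 and take part in recognising the donor splice site, had log2 fold changes of 0.058 (SE 0.074) and 0.078 (SE 0.066), both with overlapping groups. Of the U2 pair, SNRPA1 stood at 104 and 111 CPM in C0 and C1, against 104 and 109 CPM in V0 and V1, which overlap, and SNRPB2 at 74.7 and 86.6 CPM in C0 and C1, against 71.5 and 64.1 CPM in V0 and V1, which do not. The log2 fold changes were 0.017 (SE 0.074) for SNRPA1 and 0.26 (SE 0.088, edgeR adjusted p = 0.145) for SNRPB2. SNRPN, an Sm B paralogue of neurons, was listed at 0 in all 4 libraries, as were SNURF, which shares its transcript, and the pseudogene SNRPD2P2.

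Neither edgeR nor DESeq2 nor limma-voom called any of the 7 LSM genes, and in edgeR 5 had an unadjusted p under 0.05, all as higher, where 8.17% of all tested genes did. LSM1 to LSM7 form a cytoplasmic ring in messenger RNA decay, and LSM2 to LSM7 also sit in the U6 ring. LSM3, the family's highest at 420.2 FPKM, stood at 227 and 229 CPM in C0 and C1, against 205 and 190.5 CPM in V0 and V1. These did not overlap (log2 fold change 0.21, SE 0.066, edgeR adjusted p = 0.113). LSM6 stood at 20.9 and 26.9 CPM in C0 and C1, against 19.2 and 16.5 CPM in V0 and V1, the largest log2 fold change of the family at 0.44, with an SE of 0.15 and an edgeR adjusted p = 0.126. C1 was far above C0 here, and the log2 fold change was 0.24 without C1. LSM1, the subunit found only in the cytoplasmic ring, had a log2 fold change of 0.26 (SE 0.090), LSM5 0.19 (SE 0.069), LSM7 0.20 (SE 0.082) and LSM2 0.12 (SE 0.075). LSM4 stood at 237 and 249 CPM in C0 and C1, against 228 and 254 CPM in V0 and V1, where V1 was the highest of the 4 libraries. LSM1, LSM6 and LSM7 were called as higher without C0 (edgeR adjusted p = 0.0158, 0.00557 and 0.00289), and LSM1 without V0 (0.0384). LSM7 had a log2 fold change of 0.055 without C1 and 0.012 with a length trend taken out, and LSM1 one of 0.12 without V1, none of them called. With a smooth trend on transcript length taken out, the family's median was 0.080.

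Of the 9 SF3 genes SF3B14 rose and the other 8 were not called. SF3B14, now named SF3B6, encodes the small p14 protein of SF3b that lies close to the branch site adenosine. It stood at 132 and 127 CPM in C0 and C1, against 107 and 105 CPM in V0 and V1. The groups were clearly apart and the libraries within each close, with means of 129 ± 3.55 CPM in clofarabine and 106 ± 0.978 CPM in DMSO (SD, n = 2 each), and the log2 fold change was 0.28 (SE 0.071, edgeR adjusted p = 0.033). The call was lost without V0 (edgeR adjusted p = 0.132) and V1 (0.383), with DESeq2 (adjusted p = 0.0718), with upper-quartile scaling (edgeR adjusted p = 0.0505) and library totals alone (0.0643), and with a length trend taken out, when its log2 fold change was 0.17 (edgeR adjusted p = 0.175).

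The stretch before its start is shown for the same reason as that of SNRPF (RefSeq, GRCh38.p14, chr2:24076444-24076576, minus strand, printed along the gene). Capitals mark CCGGAAG, a core sequence of ETS factors, on both strands (CCGGAAG or CTTCCGG), also chosen after the sequence was read.
SF3B6: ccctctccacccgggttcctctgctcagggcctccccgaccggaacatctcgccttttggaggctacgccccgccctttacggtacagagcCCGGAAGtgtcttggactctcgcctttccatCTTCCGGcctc
It holds 2 matches. Of the 27305 RefSeq promoter windows, 2.68% held at least 1 in their first 133 bases and 0.216% at least 2. Those stretches were not cut to end at a GENCODE start, as that of SF3B6 was. Their distance from the start may differ, so the shares are not a like-placed comparison.

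The rest of SF3 lay on both sides of 0. SF3B3, the large scaffold of SF3b, stood at 462 and 476 CPM in C0 and C1, against 519 and 529.9 CPM in V0 and V1. Both clofarabine libraries were below both DMSO libraries (log2 fold change -0.16, SE 0.065, edgeR adjusted p = 0.249). SF3B5, the most abundant of the family per length at 447 FPKM, stood at 241 and 261 CPM in C0 and C1, against 222 and 257 CPM in V0 and V1, which overlap (log2 fold change 0.067, SE 0.074; -0.053 with a length trend taken out and -0.033 without V0). SF3B1, which clamps the branch site and is often mutated in myeloid neoplasms, had a log2 fold change of 0.092 (SE 0.065) and stood at 335 and 321 CPM in C0 and C1, against 312 and 303 CPM in V0 and V1. SF3A3 had one of 0.11 (SE 0.067), and SF3A1, SF3A2, SF3B2 and SF3B4 lay between -0.051 and -0.014 with overlapping groups.

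Neither edgeR nor DESeq2 nor limma-voom called any of the 13 PRPF genes, though DESeq2 gave no adjusted p for PRPF40B. In edgeR 3 of these genes had an unadjusted p under 0.05, all as higher, where 8.17% of all tested genes did. PRPF4, a U4/U6 protein of the tri-snRNP, stood at 140.1 and 138 CPM in C0 and C1, against 118 and 122 CPM in V0 and V1. The groups did not overlap and varied little within themselves (log2 fold change 0.21, SE 0.070, edgeR adjusted p = 0.126). Its partner PRPF3 stood at 70.5 and 71.4 CPM in C0 and C1, against 69.8 and 68.0 CPM in V0 and V1, with a log2 fold change of 0.044 (SE 0.080). With a length trend taken out PRPF4 was called as higher (0.22, edgeR adjusted p = 0.0365). PRPF8, the scaffold of the catalytic centre, stood at 306 and 317 CPM in C0 and C1, against 309.8 and 323 CPM in V0 and V1, and PRPF6 and PRPF31, which bridge the particles of the tri-snRNP, had log2 fold changes of -0.0026 (SE 0.069) and -0.063 (SE 0.078). PRPF19, the ubiquitin ligase of an activating complex and the family's highest at 141 FPKM, had one of -0.041 (SE 0.066). PRPF38A, which joins as the spliceosome is activated, stood at 169 and 177 CPM in C0 and C1, against 154 and 157 CPM in V0 and V1, with the groups apart (log2 fold change 0.15, SE 0.067, edgeR adjusted p = 0.31). Its relative PRPF38B stood at 121 and 119 CPM in C0 and C1, against 132 and 124 CPM in V0 and V1, apart in the opposite direction (log2 fold change -0.090, SE 0.071). PRPF39, PRPF18, a second-step factor, and the kinase PRPF4B had log2 fold changes of 0.24 (SE 0.12), 0.12 (SE 0.13) and -0.0063 (SE 0.081). PRPF40B had the value farthest from 0 of the family at -0.30, with an SE of 0.43. It was sparse and its groups overlapped, at 1.81 and 1.43 CPM in C0 and C1, against 1.65 and 2.23 CPM in V0 and V1.

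Neither edgeR nor DESeq2 nor limma-voom called any of the 11 tested SRSF genes, and in edgeR 2 had an unadjusted p under 0.05 as higher and 1 as lower, where 8.17% and 6.06% of all tested genes did. SRSF8 stood at 101 and 101 CPM in C0 and C1, against 116 and 114 CPM in V0 and V1. Both clofarabine libraries were below both DMSO libraries, by far more than the gaps within the groups (log2 fold change -0.19, SE 0.072, edgeR adjusted p = 0.208). SRSF5 stood at 206 and 219.9 CPM in C0 and C1, against 187 and 191 CPM in V0 and V1. SRSF7 stood at 334 and 383 CPM in C0 and C1, against 316 and 318 CPM in V0 and V1. Neither overlapped between the groups, with log2 fold changes of 0.17 (SE 0.066, edgeR adjusted p = 0.226) and 0.18 (SE 0.071, edgeR adjusted p = 0.228), and both were called without C0 (edgeR adjusted p = 0.0475 and 0.00159). Without C1 their log2 fold changes were 0.12 and 0.074, with edgeR adjusted p = 0.492 and 0.69. SRSF1, SRSF2 and SRSF3 had values near 0. SRSF1, which promotes exon inclusion, stood at 763 and 725 CPM in C0 and C1, against 761 and 741 CPM in V0 and V1 (log2 fold change -0.014, SE 0.068). SRSF2, often mutated in myeloid neoplasms, stood at 419.5 and 415 CPM in C0 and C1, against 424 and 422 CPM in V0 and V1 (log2 fold change -0.021, SE 0.064). SRSF3, the family's highest at 308 FPKM, stood at 933 and 959 CPM in C0 and C1, against 938 and 922 CPM in V0 and V1, where V0 lay above C0. Its log2 fold change was 0.024 (SE 0.068), and -0.011 with library totals alone as the scaling. SRSF4, SRSF6, SRSF9, SRSF10 and SRSF11 had log2 fold changes between -0.015 and 0.14.

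Neither edgeR nor DESeq2 nor limma-voom called any of the 21 tested HNRNP genes, though DESeq2 gave no adjusted p for HNRNPA3P1. In edgeR 4 of these genes had an unadjusted p under 0.05, all as higher, where 8.17% of all tested genes did. HNRNPA1, which binds silencers of exons, had the highest level per length of all members at 899.8 FPKM and stood at 1437 and 1606 CPM in C0 and C1, against 1491 and 1306 CPM in V0 and V1. V0 lay above C0, so the groups overlapped (log2 fold change 0.12, SE 0.080, edgeR adjusted p = 0.553). It was 0.20 without C0, when it was called (edgeR adjusted p = 0.0251), 0.038 without C1 and 0.022 without V1. HNRNPA2B1, a core protein of the hnRNP particle, stood at 1527 and 1671 CPM in C0 and C1, against 1495 and 1346 CPM in V0 and V1, with the groups apart (log2 fold change 0.17, SE 0.077). It was called with a length trend taken out (0.18, edgeR adjusted p = 0.045) and without C0 (0.24, 0.00439), and it was 0.10 without C1 and 0.090 without V1. HNRNPC, another core protein, stood at 1473 and 1568 CPM in C0 and C1, against 1481 and 1495 CPM in V0 and V1, which overlap (log2 fold change 0.031, SE 0.072). HNRNPH3 stood at 248 and 270.4 CPM in C0 and C1, against 234 and 226 CPM in V0 and V1, with no overlap (log2 fold change 0.17, SE 0.067, edgeR adjusted p = 0.226). It was 0.23 without C0, when it was called (edgeR adjusted p = 0.0196), and 0.10 without C1. HNRNPL, which binds CA-rich elements, was among the few below 0, at 531 and 536 CPM in C0 and C1, against 571 and 577 CPM in V0 and V1, with the groups apart (log2 fold change -0.11, SE 0.065). HNRNPUL1 had a log2 fold change of -0.12 (SE 0.068), also with both clofarabine libraries below both DMSO libraries. HNRNPAB was the fourth with an unadjusted p under 0.05, at 0.16 (SE 0.068, edgeR adjusted p = 0.3), with 0.22 without C0, when it was called (edgeR adjusted p = 0.0146), and 0.081 without C1. HNRNPU, a scaffold-attachment protein, HNRNPH1 and HNRNPD, which binds AU-rich elements, had log2 fold changes of 0.11 (SE 0.070), 0.12 (SE 0.066) and 0.090 (SE 0.068). HNRNPUL2 had one of 0.16 (SE 0.079), or -0.027 when summed with its joined entry, and HNRNPH2 one of 0.12 (SE 0.15), or 0.27 when so summed. HNRNPH2 alone was -0.13 without C1, -0.062 without V0 and 0.36 without V1, so its direction was not settled. HNRNPK, HNRNPF, HNRNPM, HNRNPR and HNRNPA0 had log2 fold changes between -0.026 and 0.038.

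Several HNRNP entries are near copies of each other, and how their shared fragments were divided is uncertain. The pseudogene HNRNPA1P10 carried 568 and 587 CPM in C0 and C1, against 592 and 613 CPM in V0 and V1, and the retrocopy HNRNPA1L2 7.08 and 9.12 CPM in C0 and C1, against 7.53 and 7.40 CPM in V0 and V1. Summed with HNRNPA1 they gave 2012 and 2202 CPM in C0 and C1, against 2090.5 and 1926 CPM in V0 and V1, and the groups overlapped as they did for HNRNPA1 alone. HNRNPA3P1, a pseudogene of HNRNPA3, had the largest log2 fold change of all members at 1.63 (SE 0.53, edgeR adjusted p = 0.118), from 30 and 52 fragments in C0 and C1, against 10 and 4 in V0 and V1. HNRNPA3 itself stood at 712 and 715 CPM in C0 and C1, against 694 and 617 CPM in V0 and V1 (log2 fold change 0.12, SE 0.071). HNRNPA3P1 had a log2 fold change of 0.92 without V1 (edgeR adjusted p = 0.846). It was called as higher without V0 (2.63, edgeR adjusted p = 0.0326) and with no filter on low counts (edgeR adjusted p = 0.0453).

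The 6 members that could not be tested had few or no fragments. HNRNPA1P33 had 5 and 14 fragments in C0 and C1, against 9 and 4 in V0 and V1. SRSF12 had 1 fragment, in V1. HNRNPCL1, HNRNPKP3, SNRPD2P2 and SNRPN had no whole fragment in any library.

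Transcript length moved with the values of the families that stood highest. All 11 tested SNRP genes and 5 of 7 LSM genes were among the shortest 2 of 10 equal classes of transcript length, as were 2 SF3, 2 SRSF, 1 HNRNP and 0 PRPF genes. In these 2 classes the 21 members had a median log2 fold change of 0.19, where all 2353 genes there had one of 0.062. The other 51 members had a median of 0.038, where all genes of their classes had one of -0.011. All 4 rises were among the short members, SNRPE in the second class and SNRPF, SNRPG and SF3B14 in the first, where 6.63% of all genes were called as higher (1.79% in the second class). On the log2 scale, the difference C1 minus V0 was 0.25 higher in the shortest class than in the longest, and C1 minus V1 was 0.19 higher. For C0 the same quantity was 0.032 against V0, -0.032 against V1 and -0.22 against C1. C1 was also the deepest library, and with all libraries thinned to equal depth the same 4 members were called. Thinning takes fragments at the same rate from all genes of a library, so it leaves a length trend in place. Whether the trend goes with depth was not tested.

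**Figure D4:**
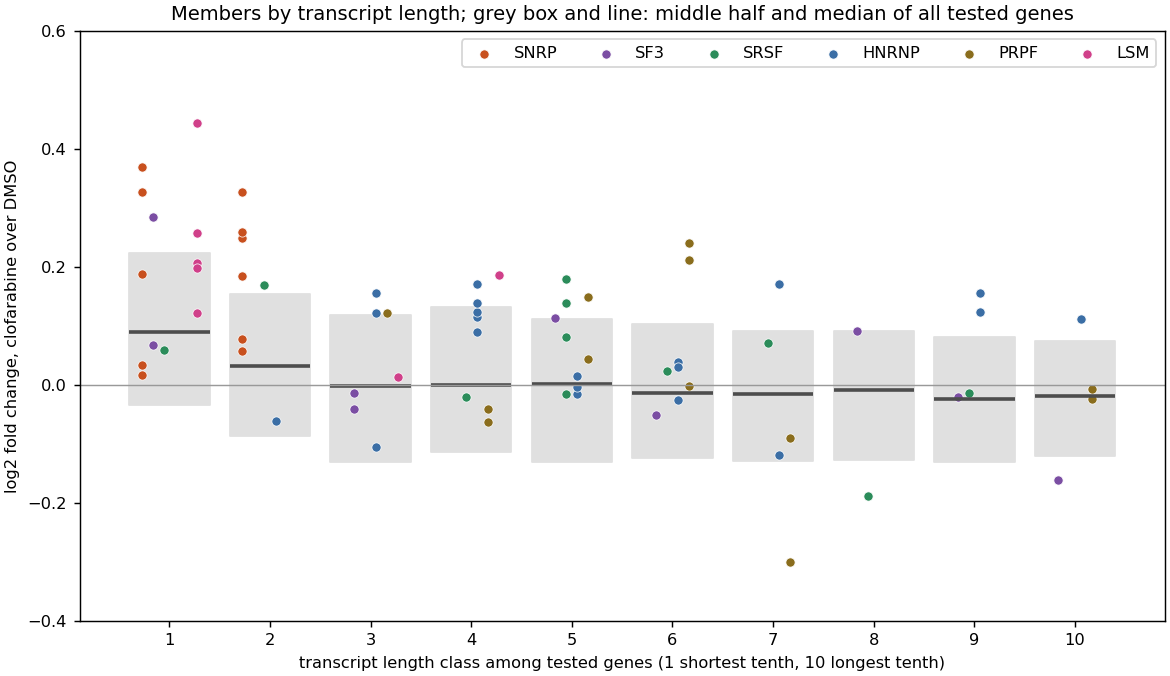
Points are log2 fold changes of tested members by transcript length class, coloured by family; grey boxes and lines give the interquartile range and the median of all tested genes of the class, and HNRNPA3P1 (1.63, class 6) is off the scale; 1 tested PRPF gene is not shown. All SNRP points lie in the first and second classes, where the median of all genes is 0.090 and 0.032.

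SF3B14 was higher in C0 than in C1, while SNRPE, SNRPF and SNRPG were higher in C1. Without C1, when the spread within groups comes from the DMSO libraries alone, SNRPE had a log2 fold change of 0.27 (edgeR adjusted p = 0.00683), SNRPG one of 0.23 (0.034) and SF3B14 one of 0.31 (0.0138), all under 0.05. The 13 members of the shortest class had a median of 0.090 without C1, where all genes of the class had one of 0.014. With a length trend taken out these medians were 0.071 and -0.012. SNRPE then had a log2 fold change of 0.30 (edgeR adjusted p = 0.000212) and SNRPF one of 0.26 (0.0233), and both were called. SNRPG was not (0.17, edgeR adjusted p = 0.105).

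**Figure D5:**
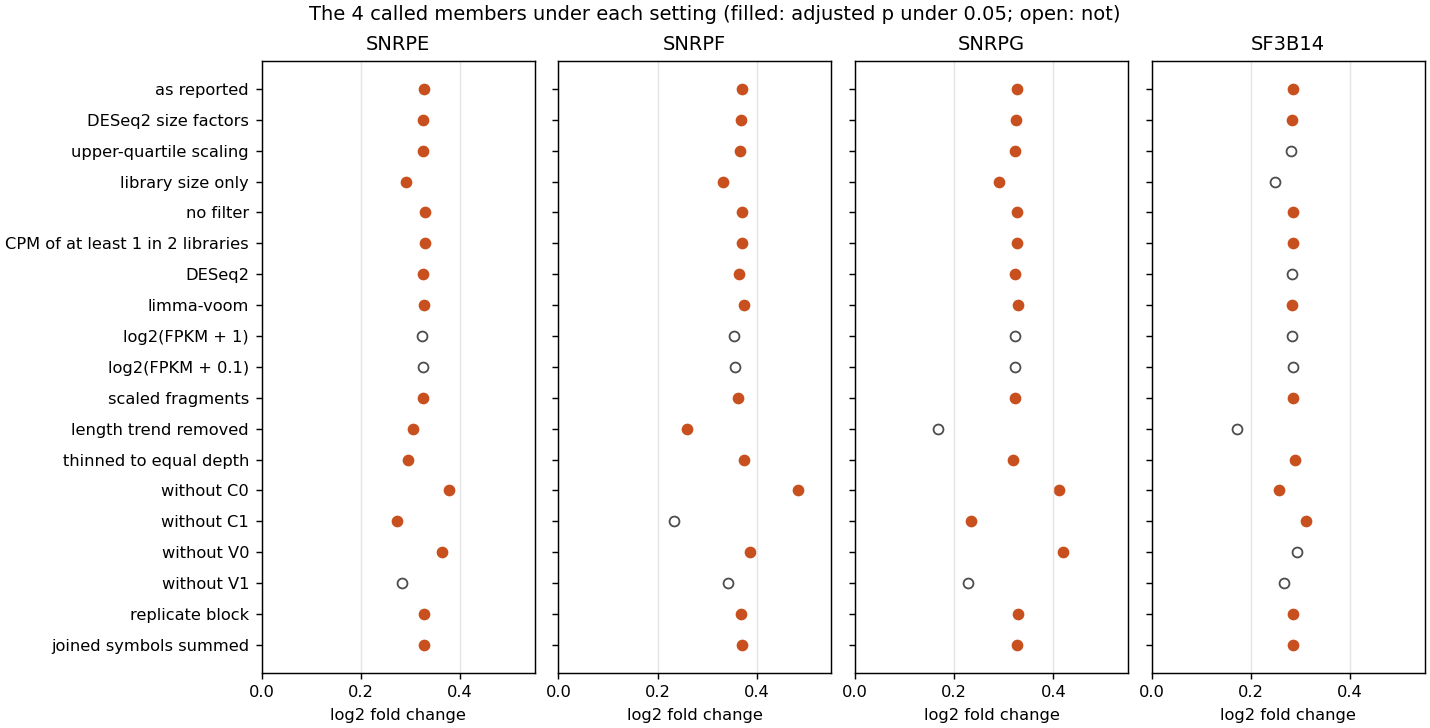
Each point is the log2 fold change of SNRPE, SNRPF, SNRPG or SF3B14 under 1 way of processing, filled where the adjusted p was under 0.05. All points are positive; none of the 4 genes was called without V1 or on the log2 FPKM scales.

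Of 114 tested splicing genes outside these names 3 rose and none fell, where 1.54% of all tested genes were called as higher and 1.03% as lower. DESeq2 called 2 and limma-voom 3, and in edgeR 25 were higher and 6 lower at an unadjusted p under 0.05, where 8.17% and 6.06% of all tested genes were. LUC7L3, a U1-associated protein, stood at 198 and 203 CPM in C0 and C1, against 174 and 159.5 CPM in V0 and V1 (log2 fold change 0.27, SE 0.068, edgeR adjusted p = 0.0336). PNN, or pinin, an SR-related protein that associates with the exon junction complex, stood at 163 and 173 CPM in C0 and C1, against 146 and 123 CPM in V0 and V1 (log2 fold change 0.33, SE 0.077, edgeR adjusted p = 0.0234). TAF15, an RNA-binding protein also found with the general transcription factor TFIID, stood at 207 and 222 CPM in C0 and C1, against 183 and 163 CPM in V0 and V1 (log2 fold change 0.32, SE 0.071, edgeR adjusted p = 0.0165). In each of them both clofarabine libraries were above both DMSO libraries. None was called without V1 (edgeR adjusted p = 0.638, 0.679 and 0.511 for LUC7L3, PNN and TAF15), nor on the log2 FPKM scales. LUC7L3 was also not called with DESeq2 (adjusted p = 0.0607), or in edgeR with upper-quartile scaling (adjusted p = 0.0556), library totals alone (0.0505), the authors' scaled fragments (0.0502) or equal depth (0.0676).

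By role, 1 of 26 further snRNP proteins (LUC7L3), 1 of 10 SR-like factors (PNN) and 1 of 22 other hnRNPs and splicing regulators (TAF15) rose. The 3 tools called none among 5 factors of the branch point and acceptor site, 21 factors of the PRPF19 complex and catalysis, 7 kinases of SR proteins, 12 proteins of the SMN complex and Sm assembly, 5 of the exon junction complex and 6 further LSM entries. In the same order 1, 8, 3, 2, 2 and 2 genes of these lists had an unadjusted p under 0.05, where 14.2% of all tested genes did; both in the SMN list and 1 of the 8 were lower in clofarabine, and the others higher. CLK1, a kinase that phosphorylates SR proteins, stood at 51.5 and 50.5 CPM in C0 and C1, against 43.3 and 38.8 CPM in V0 and V1 (log2 fold change 0.32, SE 0.094, edgeR adjusted p = 0.0792). MAGOH, of the exon junction complex, had a log2 fold change of 0.26 (SE 0.083), and ISY1, a catalytic step factor, one of 0.29 (SE 0.094). ZRSR2, which recognises the acceptor site of minor introns, had one of 0.44 (SE 0.20), and DESeq2 gave no adjusted p for it. GEMIN4, of the SMN complex that loads Sm rings, stood at 49.7 and 55.2 CPM in C0 and C1, against 59.2 and 64.4 CPM in V0 and V1, both clofarabine libraries below both DMSO libraries (log2 fold change -0.23, SE 0.089, edgeR adjusted p = 0.208).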

How the data were processed

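RNA-seq of 4 K562 samples was analysed. The submitters' processing notes name cutadapt 1.5, TopHat2 2.0.13, Cuffdiff 2.2.1 and hg19; the sources used here give neither annotation nor strand setting, so overlapping and antisense genes may share fragments. Per the file headers, the deposited table has 3 units: estimated counts of fragments, a signal that is the authors' scaled fragments, and the authors' FPKM. Relative transcript length is the ratio of scaled fragments to FPKM. Which library is which labelled replicate is not given.

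Estimated counts were rounded, filtered with filterByExpr (minimum count 10), scaled by TMM and tested with edgeR 4.0.16 (quasi-likelihood; R 4.3.3), adjusting over all 11761 genes tested. A standard error is the size of the log2 fold change over the root of its F statistic. Alternatives used DESeq2 1.42.0, limma 3.58.1 and the settings of the closing section. Fits were also run on simulated data without a length trend. The planted changes there were larger than those of the called members, so that run does not bear on calls of their size. The libraries of a group differed by more than counting error (chi-square per degree of freedom 6.55 in clofarabine, 2.73 in DMSO). The same measure was 4.08 between C0 and V0. It was not adjusted for depth, so these values do not rank the pairs by spread. The naming rule took, in each family, called members, the 2 of smallest p, the largest change and the highest FPKM, then called genes or the smallest p of the other lists, and the members nearest the threshold; further members complete each complex and were named with their values known. 1 member enters all counts but is not reported here by name. Members and lists were chosen with earlier results of these data known. Promoter windows were matched by symbol, SF3B14 through its present symbol SF3B6; no other coordinates are printed, the gene models available being of a different build.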

Additional observations from a re-analysis of the deposited data

How the results depend on the processing

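Over all genes 302 were called, against 478 with no filter on low counts, 171 with DESeq2, 56 on log2(FPKM + 1), 72 on log2(FPKM + 0.1), 481 with a length trend removed, 466 at an adjusted p under 0.1, 128 at one under 0.01 and between 129 (without V1) and 633 (without C0) when a library was left out. Of the 4 calls among splicing factors, 0 were left on log2(FPKM + 1), 0 on log2(FPKM + 0.1) and 1 at an adjusted p under 0.01; leaving out a library gave between 0 (without V1) and 17 (without C0). With the library number as a replicate block 796 genes and 16 members were called. These numbers do not pair the samples by the labels, and same-numbered libraries deviated from their group means with a correlation of 0.019.

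Family medians are listed here where they moved by more than the within-group SD of that family's own library medians. This SD was 0.089 for SNRP and 0.0059 for SRSF. A shift listed for SRSF could thus go unlisted for SNRP, and the list does not rank the families by stability. With library totals alone the median was 0.023 for SRSF and -0.039 for PRPF. With a length trend removed it was 0.033 for SRSF, 0.018 for PRPF and 0.080 for LSM. At equal depth it was 0.066 for SRSF and 0.036 for PRPF, and with no filter 0.042 for SRSF. For SF3 it was 0.037 without C0 and 0.064 without V1. With a library left out the median ran from 0.027 to 0.053 for SRSF and from 0.030 to 0.15 for HNRNP. For PRPF it then ran from 0.017 to 0.061. The SNRP median stayed between 0.12 and 0.27 under all settings run. SF3B5 had the opposite sign with a length trend removed (-0.053) and without V0 (-0.033, in a range up to 0.17 with a library left out), and SRSF3 with library totals alone (-0.011). HNRNPH2 had it without C1 (-0.13) and V0 (-0.062), and further members outside the naming rule also changed sign under some settings. The cause of these changes was not tested. The median standard error of a log2 fold change was 0.070 over members and 0.12 over all tested genes, which limits what 2 samples a group can show. Members had a median of 120 FPKM, against 9.83 over all tested genes. The shares of all tested genes given beside the members are therefore not matched for expression level.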

Other observations

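2 members lie in loci that the table also gives as joined entries, and the way these are treated changes their values. RPL36A-HNRNPH2, a readthrough entry, stood at 91.9 and 88.6 CPM in C0 and C1, against 77.8 and 67.7 CPM in V0 and V1 and was called as higher (log2 fold change 0.31, SE 0.082, edgeR adjusted p = 0.0415), while HNRNPH2 alone stood at 21.2 and 28.9 CPM in C0 and C1, against 19.6 and 26.5 CPM in V0 and V1 (log2 fold change 0.12, SE 0.15). Their sum had a log2 fold change of 0.27 (edgeR adjusted p = 0.0513). HNRNPUL2-BSCL2 stood at 74.0 and 89.2 CPM in C0 and C1, against 88.8 and 98.7 CPM in V0 and V1 (log2 fold change -0.20, SE 0.089), and HNRNPUL2 alone at 84.9 and 88.5 CPM in C0 and C1, against 81.2 and 74.9 CPM in V0 and V1 (log2 fold change 0.16, SE 0.079). The sum of HNRNPUL2 and its joined entry had a log2 fold change of -0.027 (edgeR adjusted p = 0.922). A joined entry may also hold fragments of the other gene in its name, so neither sum is a value of the member alone.

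Some relatives carry older names that the name rule leaves out. NAA38 is listed by RefSeq as an older symbol of LSM8, the subunit found only in the U6 ring, and the table also holds LSMD1, an older symbol of the gene now called NAA38. The NAA38 entry stood at 86.1 and 91.2 CPM in C0 and C1, against 78.8 and 73.1 CPM in V0 and V1, with both clofarabine libraries above both DMSO libraries (log2 fold change 0.23, SE 0.079, edgeR adjusted p = 0.158). HNRPDL and HNRPLL, older spellings of HNRNPDL and HNRNPLL, had log2 fold changes of 0.067 (SE 0.066) and 0.021 (SE 0.082), and neither was called. PHF5A, another small SF3b protein, had one of 0.21 (SE 0.078, edgeR adjusted p = 0.198). HNRPDL, HNRPLL and PHF5A were chosen after their values were seen.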
